A study of Mus musculus with 12 samples.

Results

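Among 10 genes that restrain the mTORC1 kinase complex, BAM15 raised Sesn2 8.35-fold and Eif4ebp1 3.50-fold in C2C12 myotubes. By adjusted p alone 4 of the 10 were higher and 1 was lower, a share near that of all tested genes, of which 42.3% passed. The genes were listed by name as known negative regulators of mTORC1, by a rule that uses no measured value, although earlier results of these data were known when the list was made: the sestrins Sesn1, Sesn2 and Sesn3, the REDD1 gene Ddit4 and its paralog Ddit4l, the tuberous sclerosis genes Tsc1 and Tsc2, Deptor, and the 4E-BP genes Eif4ebp1 and Eif4ebp2. All 10 are among the 15113 genes of the deposited count table, and all 10 passed the filter on low counts that left 12730 genes to test. Beside Sesn2 and Eif4ebp1, Ddit4 and Ddit4l rose by less than 2-fold, and Deptor fell by less than 2-fold. The paralogs Sesn1 and Sesn3 did not pass the test, so that the rise among the sestrins was carried by Sesn2.

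C2C12 is a clonal line of mouse myoblasts, which fuse into multinucleate myotubes in low serum. The cells, at passages 2-5 according to the sample records, were kept in high-glucose DMEM with 10% FBS until confluent, and differentiation was started with 2% horse serum. One group of 6 libraries came from myotubes exposed for 16 h to 20 µM BAM15, a small-molecule mitochondrial uncoupler dissolved in DMSO, and the other group of 6 from myotubes given vehicle. RNA was read with QuantSeq, which makes 1 fragment near the 3′ end of each polyadenylated transcript, so that counts of different genes can be set side by side without a correction for transcript length. No gene was altered in these cells, and both groups share the line, the medium and the time point. The records do not say whether the 6 libraries of a condition came from separate cultures, so the p-values measure the spread between these libraries, which may be technical.

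mTORC1 is the growth-promoting complex of the mTOR kinase. It is switched on at the lysosome when amino acids act through the Rag GTPases and when growth factors release the GTPase RHEB from inhibition by the TSC complex. Its best known outputs are the phosphorylation of S6 kinase and of the 4E-BPs, small proteins that hold the cap-binding factor eIF4E when they are not phosphorylated. The brakes act at different points of this chain. Sestrins bind GATOR2 and dampen the amino acid signal, REDD1 and its relative act through the TSC complex, TSC1 and TSC2 keep RHEB inactive, DEPTOR binds mTOR itself, and the 4E-BPs stop translation at the mRNA cap. In skeletal muscle the pathway is known for its part in protein synthesis and fibre size. mRNA levels do not give the activity of the pathway, which depends on protein and phosphorylation.

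Sequences before annotated starts are shown first for members that rose, with Sesn3 beside Sesn2 because these paralogs differed in response. RefSeq promoter entries (assembly GRCm38.p6) were found for 8 of the 10 members, with 9 entries in all, and Eif4ebp1 and Deptor had none. Each window holds the 250 bases before an annotated transcription start, read 5′ to 3′ on the strand of the gene, and bases that lie in an annotated exon are not printed. The window shown for Sesn2 is chr4:132510502-132510706 on the minus strand. That for Sesn3 is chr9:14276051-14276300 on the plus strand, that for Ddit4 is chr10:59951835-59952020 on the minus strand, and that for Ddit4l is chr3:137623422-137623671 on the plus strand. The windows of Sesn3 and Ddit4l lie inside these genes, whose first annotated bases are 14275067 and 137621612. Each therefore precedes a start further into the gene. The windows searched for Sesn2 and Ddit4 reach into their genes only in part, with 45 and 64 bases in annotated exons. Capitals mark CCAAT boxes, which read ATTGG where they lie on the opposite strand, and the core of the hypoxia response element, ACGTG.
Sesn2: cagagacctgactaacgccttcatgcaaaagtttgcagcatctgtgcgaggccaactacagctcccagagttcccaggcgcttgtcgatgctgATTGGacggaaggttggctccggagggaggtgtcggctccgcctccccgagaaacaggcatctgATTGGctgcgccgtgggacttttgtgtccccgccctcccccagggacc
Sesn3: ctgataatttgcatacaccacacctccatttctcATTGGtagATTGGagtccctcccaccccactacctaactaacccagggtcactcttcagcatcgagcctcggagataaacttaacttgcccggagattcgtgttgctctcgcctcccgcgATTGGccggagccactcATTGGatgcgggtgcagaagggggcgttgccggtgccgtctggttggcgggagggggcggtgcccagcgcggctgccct
Ddit4: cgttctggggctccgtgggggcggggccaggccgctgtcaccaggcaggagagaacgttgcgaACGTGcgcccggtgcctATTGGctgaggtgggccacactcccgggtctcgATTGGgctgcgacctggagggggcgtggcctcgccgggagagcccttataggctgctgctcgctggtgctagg
Ddit4l: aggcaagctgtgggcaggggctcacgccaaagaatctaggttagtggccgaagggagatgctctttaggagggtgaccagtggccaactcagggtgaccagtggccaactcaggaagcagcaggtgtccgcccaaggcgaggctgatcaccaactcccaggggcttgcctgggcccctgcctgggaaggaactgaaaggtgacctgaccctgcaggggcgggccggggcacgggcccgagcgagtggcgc

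The whole window of each of the 9 entries was searched on both strands for 4 motifs: CCAAT, the hypoxia core ACGTG, the ATF4 element TGATGNAA and the FoxO element GTAAACA. In the Sesn2 window CCAAT lay on the opposite strand at 157 to 153 and at 93 to 89 bases before the start. The Ddit4 window held CCAAT at 170 to 166 and at 137 to 133 bases before the start, also on the opposite strand, and ACGTG at 187 to 183. The Sesn3 window, of a gene that did not pass the test, held 4 CCAAT boxes, and the Ddit4l window held none of the 4 motifs. In the windows that are not printed, CCAAT was found once in each of both Sesn1 windows, and the hypoxia core once in the Eif4ebp2 window. Both Sesn1 windows also lie inside that gene. CCAAT occurred in 33.8% and at least 2 times in 10.1% of the 32851 RefSeq promoters of the same length, ACGTG in 16.6%, TGATGNAA in 3.45% and GTAAACA in 3.17%. The letters of TGATGNAA and GTAAACA were in none of the 9 windows. CCAAT was thus found both in windows of members that rose and in windows of members that did not.

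Between 13983725 and 18751780 reads per BAM15 library and between 15299135 and 18866728 per vehicle library were counted on genes. The first principal component, with 65.7% of the variance, separated the conditions, and the second, with 17.0%, separated BAM15 libraries numbered 1 to 3 (-37.6 to -20.5) from those numbered 4 to 6 (7.98 to 41.7), with the vehicle libraries between -10.1 and 10.4. The records name no batch, and member values are therefore given also by these number ranges. Markers of differentiated myotubes were abundant in every library, with a summed level of 414710 to 524052 normalized counts in BAM15 and 435022 to 472011 in vehicle libraries. Of the adipocyte markers only Fabp4 was listed, at 0 to 3 counts per library, and the fibroblast marker Lum was at 0 to 4 counts. The summed level of 5 cycling cell markers was 2025 to 2199 in BAM15 and 5680 to 6431 in vehicle libraries, that of 6 myoblast markers 3839 to 4529 and 6020 to 6770, and that of the fibroblast markers 2395 to 2974 and 4057 to 4513. The myoblast markers did not move together. At an adjusted p below 0.01 (edgeR) 3 were lower, 2 did not pass, and Myf5 was higher (log2 fold change 1.69). Most of their sum came from Cdh15, at a mean of 2460 with BAM15 and 4367 with vehicle. Most of the fibroblast sum came from Dcn, at 2671 and 4238, while Pdgfra was at 31.4 and 40.0. The part of these cells in the member values was not tested, and in such bulk samples fewer cells of a type cannot be told apart from less RNA per cell.

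Counts were scaled by TMM, tested with edgeR's quasi-likelihood test and adjusted by the Benjamini-Hochberg method over all tested genes. A gene was called at an adjusted p below 0.01, a base mean (mean normalized count of all 12 libraries) above 50, and more than 2-fold change. At these thresholds 2 of the 10 members were higher in BAM15 myotubes (Sesn2 and Eif4ebp1), against 3.7% of all tested genes. No member was lower at these thresholds, against 3.58% of all tested genes, which was also the result with DESeq2 and limma-voom, and 7.28% of genes were called in either direction. By adjusted p alone, 4 members were higher (Sesn2, Eif4ebp1, Ddit4 and Ddit4l), against 22% of all genes, and 1 was lower (Deptor), against 20.3%. With 42.3% of all genes past that threshold, a share of 5 in 10 members was near the background. At an unadjusted p below 0.05, 5 members were higher, Tsc2 being the added one, against 30.2% of all tested genes, and 2 were lower, Deptor and Eif4ebp2, against 28.5% (edgeR). The median log2 fold change was 0.12 over the 10 members and 0.02 over all tested genes.

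**Figure D1:**
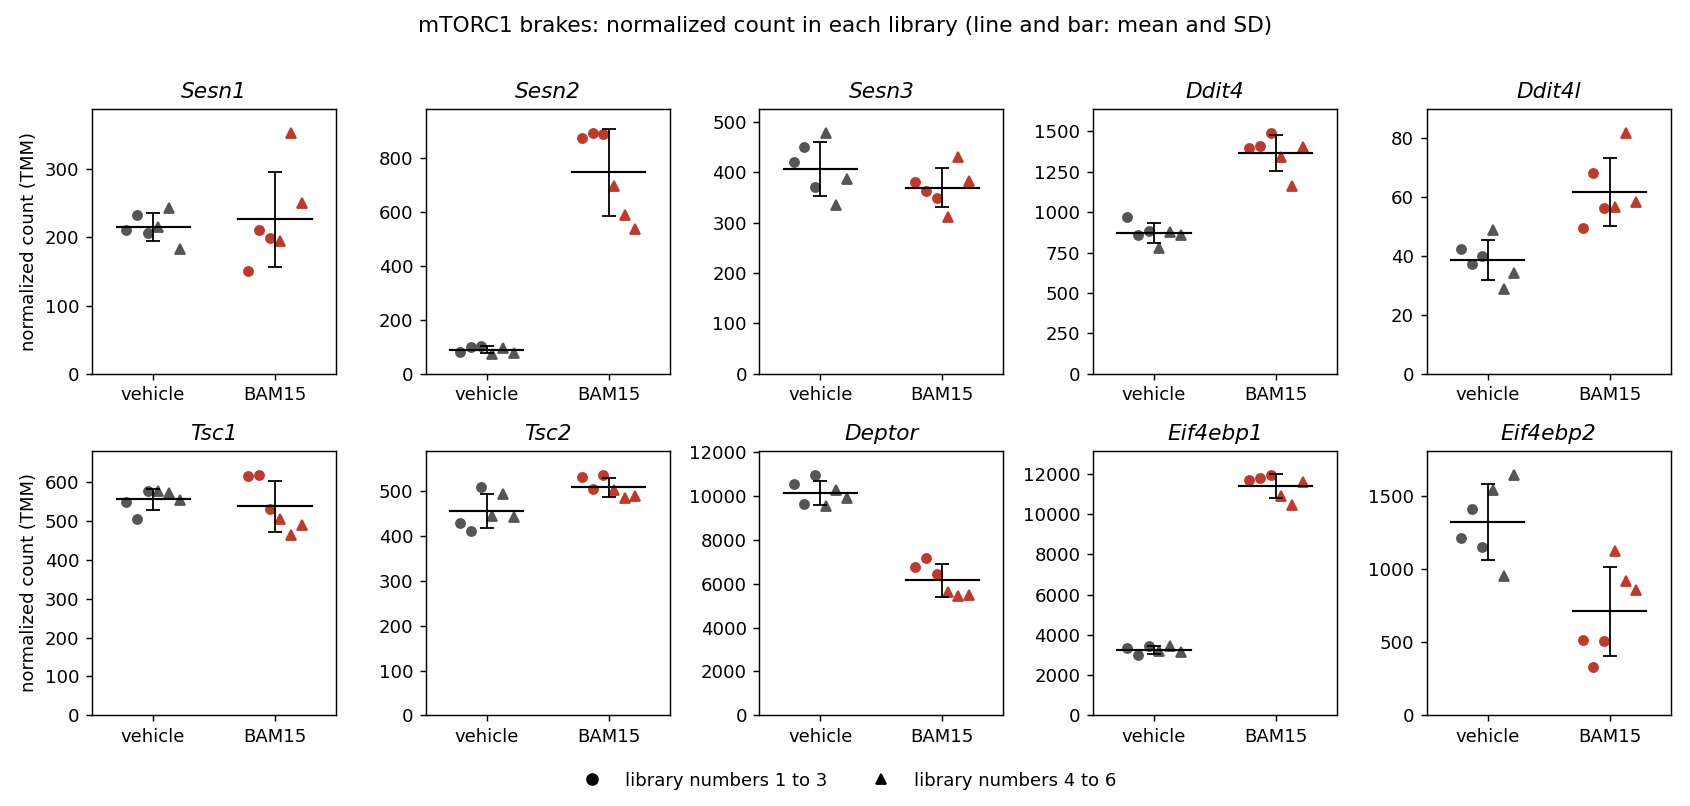
TMM-normalized counts (vertical axis, starting at 0, with a scale for each gene) of the 10 members in the 6 vehicle and 6 BAM15 libraries, with the mean as a line, the SD as a bar, circles for library numbers 1 to 3 and triangles for 4 to 6. The groups lie apart for Sesn2, Ddit4, Ddit4l and Eif4ebp1, which are higher with BAM15, and for Deptor, which is lower, and they overlap for the other 5 genes.

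The plot of counts by library shows that the groups did not overlap for 5 members, 4 of them higher with BAM15 and 1 lower. Such separation was found in 34.2% of all tested genes, in 17.1% upward and in 17% downward. The 5 members with separate groups are the 5 that passed the adjusted p threshold.

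Sesn2 encodes Sestrin2, a leucine-binding inhibitor of GATOR2 and the stress-inducible sestrin. The gene lies at chr4:132492032-132510501 on the minus strand (GRCm38). Its normalized count ran from 74.7 through a median of 89.4 to 104 in vehicle libraries, and from 536 through 786 to 891 in BAM15 libraries. The lowest BAM15 library was thus several times above the highest vehicle library. The mean was 89.3 ± 13 (SD, n = 6) with vehicle and 746 ± 160.1 (SD, n = 6) with BAM15. The log2 fold change was 3.06 ± 0.15 (SE), with an adjusted p of 2.67e-10 in edgeR's test with Benjamini-Hochberg adjustment, and the increase ranked 89 among all tested genes.

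Sesn1 (chr10:41809935-41908424, plus strand) encodes Sestrin1, which binds GATOR2 as Sestrin2 does and is known as a target of p53 and FoxO factors. Its normalized count was 184 to 243 (median 213) in vehicle libraries and 151 to 353 (median 205) in BAM15 libraries. The BAM15 libraries spread to both sides of the vehicle range, and library 5 was the highest. The log2 fold change was 0.08 ± 0.16 (SE; edgeR, Benjamini-Hochberg adjusted p = 0.714). Sesn3 (chr9:14275067-14333101, plus strand), the sestrin best known as a FoxO target, had 334 to 477 normalized counts (median 404) with vehicle and 312 to 430.0 (median 371) with BAM15. Its groups overlapped over most of their range, and its log2 fold change was -0.14 ± 0.10 (SE; edgeR, Benjamini-Hochberg adjusted p = 0.245).

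Ddit4 encodes REDD1, a short-lived stress-induced protein that restrains mTORC1 through the TSC complex, and lies at chr10:59949669-59951834 on the minus strand. Its normalized count was 780.5 to 973 (median 869) in vehicle and 1162 to 1489 (median 1402) in BAM15 libraries. All 6 BAM15 libraries were above all vehicle libraries, with library 5 the lowest of them. The mean rose from 872 ± 61.8 to 1368 ± 111 (SD, n = 6 each), 1.57-fold. This was a log2 fold change of 0.65 ± 0.07 (SE; edgeR, Benjamini-Hochberg adjusted p = 1.07e-06), and the gene failed the call only on the size of its change.

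Ddit4l encodes the REDD1-like protein and lies at chr3:137621612-137628333 on the plus strand. It was the member with the fewest reads, at 28.9 to 48.7 normalized counts (median 38.7) with vehicle and 49.5 to 81.7 (median 57.5) with BAM15. The groups were separate by less than 1 count, between the highest vehicle and the lowest BAM15 library. On the log2 scale the change was 0.68 ± 0.16 (SE; edgeR, Benjamini-Hochberg adjusted p = 0.00194). Its mean over the 12 libraries, 50.2, was just above the minimum of 50. Ddit4 and Ddit4l thus rose by similar factors from levels that differed widely, 872 against 38.6 normalized counts with vehicle.

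Tsc1 and Tsc2 encode hamartin and tuberin, the scaffold and the RHEB GTPase-activating subunit of the TSC complex. Tsc1 (chr2:28641228-28691167, plus strand) had 506 to 577 normalized counts (median 562) with vehicle and 463 to 619 (median 519) with BAM15. The BAM15 range enclosed the vehicle range, and the log2 fold change was -0.05 ± 0.08 (SE; edgeR, Benjamini-Hochberg adjusted p = 0.634). Tsc2 (chr17:24595816-24632630, minus strand) had 412 to 509 normalized counts (median 443) with vehicle and 485 to 537 (median 504) with BAM15. The upper vehicle libraries reached into the BAM15 range, and the log2 fold change was 0.16 ± 0.07 (SE; edgeR, Benjamini-Hochberg adjusted p = 0.0524). Tsc2 is the only member whose 3′ end overlaps another gene. Of the 50-base windows near its ends, 28.9% are shared with Pkd1 on the opposite strand, and since the strand used for counting is not given in the sources used here, its value is uncertain. The other 9 members shared none of these windows with another gene.

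Deptor encodes the subunit that binds mTOR and inhibits both of its complexes, and lies at chr15:55112317-55259271 on the plus strand. With vehicle it had the highest level of the 10 members, at 9528 to 10970.3 normalized counts (median 10090.3), and with BAM15 it had 5422 to 7170.2 (median 6042). All 6 BAM15 libraries were below all vehicle libraries. The mean was 10139 ± 557 with vehicle and 6155 ± 738 with BAM15 (SD, n = 6 each). With a log2 fold change of -0.72 ± 0.08 (SE; edgeR, Benjamini-Hochberg adjusted p = 1.14e-06), 1.65-fold lower, Deptor was the only member lower at an adjusted p below 0.01 in this test. Eif4ebp2 had a larger decrease with a larger error and passed that threshold under some alternatives.

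Eif4ebp1 encodes 4E-BP1, the repressor of eIF4E that mTORC1 inactivates by phosphorylation, and lies at chr8:27260329-27276674 on the plus strand. Its normalized count was 2993 to 3449.6 (median 3264) in vehicle and 10472 to 11967 (median 11642) in BAM15 libraries. Both groups were tight, and the lowest BAM15 library was about 3 times the highest vehicle library. The mean rose from 3258 ± 184 to 11399.6 ± 583 (SD, n = 6 each). The log2 fold change was 1.81 ± 0.06 (SE; edgeR, Benjamini-Hochberg adjusted p = 1.35e-12), and its p-value ranked 42 among all tested genes. With BAM15 the Eif4ebp1 mRNA replaced that of Deptor as the most abundant of the 10.

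Eif4ebp2 encodes 4E-BP2, the paralog with the same function, and lies at chr10:61428491-61452661 on the minus strand. Its normalized count was 954 to 1646 (median 1313) with vehicle and 331 to 1125 (median 689) with BAM15. All 6 BAM15 libraries were below the vehicle mean of 1320.1, but the highest BAM15 library was above the lowest vehicle library. The log2 fold change was -0.89 ± 0.26 (SE), and the adjusted p of 0.0125 in edgeR's test with Benjamini-Hochberg adjustment missed the threshold of 0.01. The SE of this value was the largest among the members, and the result depended on the setting. With DESeq2's Wald test the adjusted p was 0.000633, with limma-voom 0.00627 and without BAM15 replicate 4 0.00366, and over all alternatives it ran from 0.000164 to 0.0764.

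Within each family the share of reads taken by one paralog needs no scaling between libraries. The shares are made of the same counts as the gene tests above. Separate groups in the Sesn2 and Eif4ebp1 shares follow from the changes already given, so their p-values are no separate support. Sesn2 held 12.6% ± 2.03 of the reads on the 3 sestrin genes with vehicle (9.73% to 15.3%) and 55.2% ± 8.58 with BAM15 (43.0% to 62.2%; SD, n = 6 each). The difference of 42.6 percentage points had p = 0.00216 in a two-sided exact permutation test, the smallest p that the 924 assignments of 6 libraries against 6 can give, and an adjusted p of 0.00325 over the 3 shares. Sesn3 had thus been the most abundant sestrin mRNA with vehicle, at a mean of 406 normalized counts against 215 for Sesn1 and 89.3 for Sesn2, and Sesn2 was the most abundant with BAM15, at 746 against 369 for Sesn3 and 227 for Sesn1. Eif4ebp1 held 71.3% ± 5.03 of the reads on Eif4ebp1 and Eif4ebp2 with vehicle and 94.1% ± 2.60 with BAM15. This was a difference of 22.8 points with the same exact permutation p = 0.00216 (adjusted 0.00325). A further 4E-BP gene, Eif4ebp3, was not among the counted genes and is not part of this share. Ddit4 held 95.7% ± 0.890 of the REDD1 family reads with vehicle and 95.6% ± 1.15 with BAM15, a difference of -0.115 points (exact permutation p = 0.818, adjusted 0.818).

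**Figure D2:**
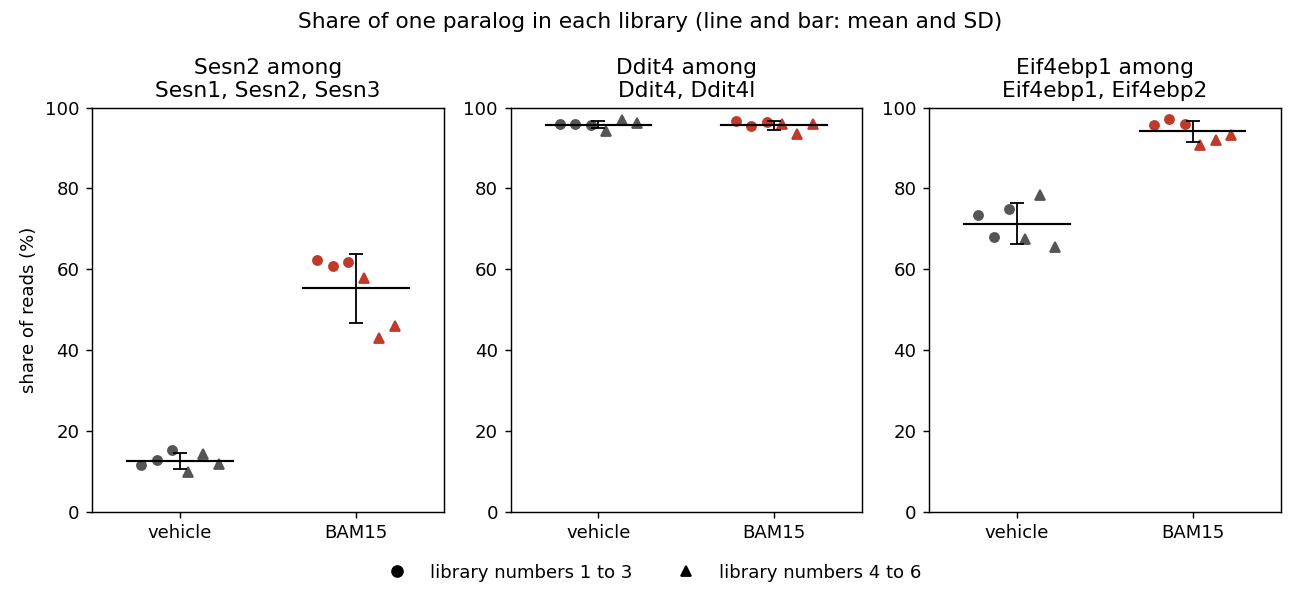
Share of reads in percent (vertical axis, 0 to 100) of Sesn2 among the 3 sestrins, Ddit4 among Ddit4 and Ddit4l, and Eif4ebp1 among Eif4ebp1 and Eif4ebp2. Each vehicle and BAM15 library is shown, with mean (line), SD (bar), circles for library numbers 1 to 3 and triangles for 4 to 6. The sestrin share moves from 12.6% to 55.2% and the 4E-BP share from 71.3% to 94.1%, while the Ddit4 share stays near 95.7%.

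As the plot of shares shows, the make-up of the sestrin and 4E-BP transcript pools differed between the conditions and that of the REDD1 pool did so by less than its spread. Summed over the 3 sestrins, the normalized count was 711 ± 54.5 with vehicle and 1342 ± 125 with BAM15, a ratio of 1.89. The sum over Ddit4 and Ddit4l was 910.3 ± 60.5 and 1430.0 ± 102, a ratio of 1.57. The sum over Eif4ebp1 and Eif4ebp2 was 4578 ± 157 and 12110.2 ± 395, a ratio of 2.65 (SD, n = 6 each). The rise in the sestrin and 4E-BP sums was therefore smaller than that of Sesn2 and Eif4ebp1 alone.

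BAM15 libraries 1 to 3 and 4 to 6 differed in several members. These ranges were chosen because earlier results of these data had set the BAM15 libraries apart in this way. The p-values between the ranges, here and below, are therefore a description and not an independent test. In a model with a mean for each condition and number range, 38.8% of all tested genes differed between BAM15 libraries 4 to 6 and 1 to 3 at an adjusted p below 0.05 (edgeR, Benjamini-Hochberg), and 5 of the 10 members did. Between vehicle libraries 4 to 6 and 1 to 3, 0% of genes differed by the same edgeR test, with 696 genes at an unadjusted p below 0.05, and no member did at either level. Sesn2 was at 884 ± 9.1 normalized counts in BAM15 libraries 1 to 3 and at 608 ± 82.3 in 4 to 6 (SD, n = 3 each), a log2 difference of -0.54 (edgeR adjusted p = 0.000923). Deptor was lower in 4 to 6 as well, at 5518 ± 114 against 6792 ± 365 (log2 difference -0.30, edgeR adjusted p = 0.00188), as was Tsc1 at 486 ± 22 against 588 ± 49.5 (-0.27, edgeR adjusted p = 0.0177). Eif4ebp2 was higher in 4 to 6, at 968 ± 139 against 453 ± 106 (log2 difference 1.09, edgeR adjusted p = 0.00474), as was Sesn1 at 266 ± 79.9 against 187 ± 31.4 (0.52, edgeR adjusted p = 0.0366). The members that differed were thus not shifted in one direction.

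**Figure D3:**
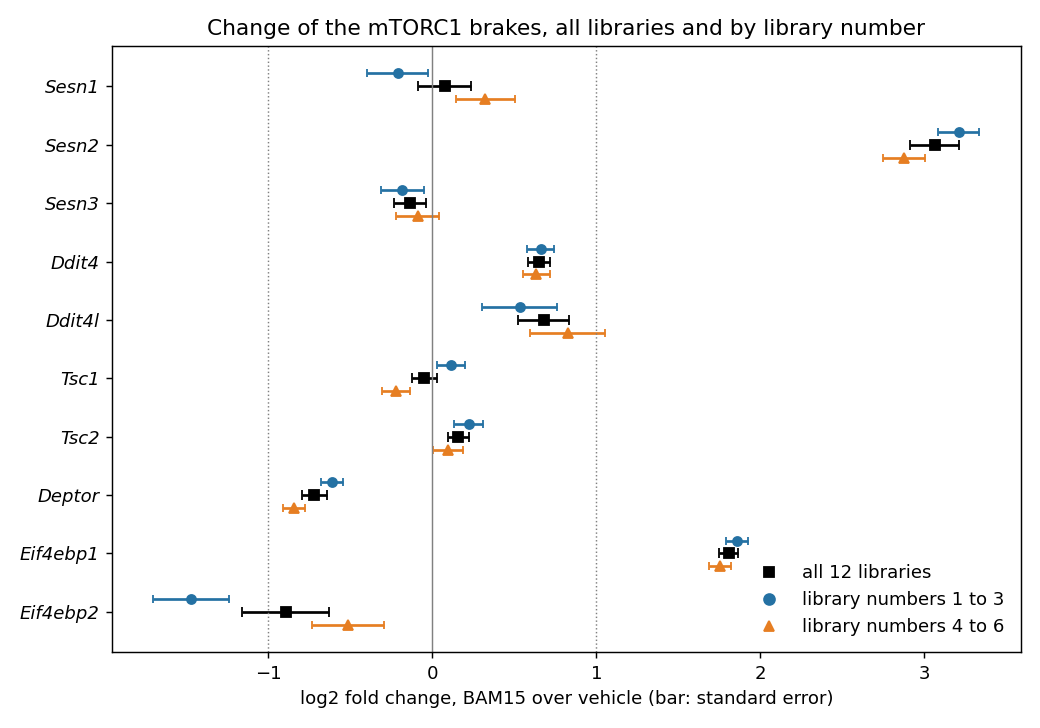
Log2 fold change of BAM15 over vehicle (horizontal axis) with its standard error (bar) for each member from all 12 libraries (black squares), from library numbers 1 to 3 (blue circles) and from 4 to 6 (orange triangles), with dotted lines at a 2-fold change in either direction. Sesn2, Eif4ebp1, Ddit4, Ddit4l and Deptor keep their side of 0 in both number ranges, while Sesn1 and Tsc1 lie on different sides and Eif4ebp2 runs from -1.47 to -0.51.

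The plot of changes by library number sets these ranges beside the fit of all 12 libraries. The log2 fold change of Sesn2 was 3.21 in numbers 1 to 3 and 2.88 in 4 to 6, that of Eif4ebp1 was 1.86 and 1.75, that of Ddit4 was 0.66 and 0.64, and that of Deptor was -0.61 and -0.84. Ddit4l gave 0.53 (edgeR adjusted p = 0.0579) and 0.83 (edgeR adjusted p = 0.00543). Eif4ebp2 gave -1.47 (edgeR adjusted p = 0.000377) in numbers 1 to 3 and -0.51 (edgeR adjusted p = 0.0745) in 4 to 6. Sesn1 gave -0.21 (edgeR adjusted p = 0.361) and 0.32 (edgeR adjusted p = 0.145). Tsc1 gave 0.11 (edgeR adjusted p = 0.285) and -0.22 (edgeR adjusted p = 0.0379). None of the Sesn1 and Tsc1 values passed an adjusted p of 0.01, so their signs do not show opposite effects. For no member did the difference of the BAM15 effect between the ranges itself pass an adjusted p of 0.05 (edgeR, Benjamini-Hochberg), against 2.66% of all tested genes, and for 3 members, Eif4ebp2, Deptor and Tsc1, its unadjusted p was below 0.05, against 26% of all tested genes. The adjusted p of that difference was 0.104 for Eif4ebp2, 0.103 for Tsc1, 0.126 for Deptor, 0.207 for Sesn1 and 0.252 for Sesn2. Library numbers carry no stated meaning, and a batch, in the BAM15 group or in both groups, cannot be told apart from variation of the response. The summed myotube markers of the same libraries were 489157 to 524052 in BAM15 numbers 1 to 3 and 414710 to 441210 in 4 to 6, and their part in the member values was not tested.

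For each called member, the 3 tested genes with the most similar profile over the 12 libraries were taken, by the root mean square difference of log2 CPM after each gene was centred on its vehicle mean. Similar fold changes of the genes taken follow from this measure. For Sesn2 these were Chchd10, a gene for a mitochondrial intermembrane protein (difference 0.166, log2 fold change 3.15), Angptl6 (0.169 and 3.05) and Pck2, the mitochondrial phosphoenolpyruvate carboxykinase (0.174 and 3.10). Part of the 3′ sequence of Angptl6 (61.8% of 50-base windows, with A230050P20Rik), Chchd10 (14.2%) and Pck2 (4.21%) is shared with other genes. For Eif4ebp1 they were Wars, the cytosolic tryptophanyl-tRNA synthetase (difference 0.0638, log2 fold change 1.74), Gpt2, the mitochondrial alanine aminotransferase (0.0840 and 1.77), and Bbc3, which encodes the pro-apoptotic protein PUMA (0.0977 and 1.71). The nearest profiles were closer for Eif4ebp1 than for Sesn2.

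Among the other genes of the pathway, 60 of 62 listed genes were tested. By adjusted p below 0.01, 13 were higher, against 22% of all tested genes, 7 were lower, against 20.3%, and 40 did not pass, with a median log2 fold change of 0.08. At the 3 thresholds 1 was higher, Fnip2, a partner of folliculin, at 135 ± 7.32 normalized counts with vehicle and 298 ± 19.8 with BAM15 (SD, n = 6 each; log2 fold change 1.14, edgeR adjusted p = 4.6e-09). One was lower, Castor2, which with CASTOR1 senses arginine upstream of GATOR2, at 819 ± 66.3 with vehicle and 378 ± 28.5 with BAM15 (log2 fold change -1.12, edgeR adjusted p = 4.61e-09). Sesn2 and Castor2, which both act upstream of GATOR2, thus moved in opposite directions. Castor1 did not pass (log2 fold change 0.26, edgeR adjusted p = 0.486).

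In the genes for mTOR complex subunits and assembly factors, 1 of 11 was higher by adjusted p and 3 were lower. The largest decrease was that of Prr5l, an mTORC2 partner (log2 fold change -0.76), and the increase was that of Telo2 (0.52), which assembles mTOR-type kinases. The base mean of Prr5l, 30.4, was below the minimum of 50 for a call. Rptor, the substrate-binding subunit of mTORC1, fell by 0.47 on the log2 scale, and Mtor itself had -0.08 (edgeR adjusted p = 0.311). Of 25 tested genes of amino acid sensing, 7 were higher and 2 were lower, among them the lysosomal arginine sensor Slc38a9 (0.66) and Rragd, a Rag GTPase (0.57). Rhebl1, a RHEB paralog, was the 1 of 3 genes of TBC1D7 and the RHEB GTPases that passed (0.79). Of 21 tested outputs and translation factors, 4 were higher and 2 lower. Eif4b, the cofactor of the eIF4A helicase, had 0.68, Pdcd4, an inhibitor of that helicase, had -0.99, and Rps6kb1, the S6 kinase gene, had -0.62, all past the adjusted p threshold in edgeR's test. Eif4e, the target of the 4E-BPs, was at 1412 ± 67.0 normalized counts with vehicle and 1457 ± 87.4 with BAM15 (log2 fold change 0.05, edgeR adjusted p = 0.506). Of the 50-base windows near the 3′ ends of Eif4e, 18.4% are shared with Gm30738, Gm49657 and Gm7327, and of those of Rps6kb1 10.1% are shared with Rnft1 on the opposite strand, so that both values are uncertain. The largest fold change in this list, that of Rps6 (1.34), did not pass, and most of its 3′ sequence is shared with other loci.

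**Figure D4:**
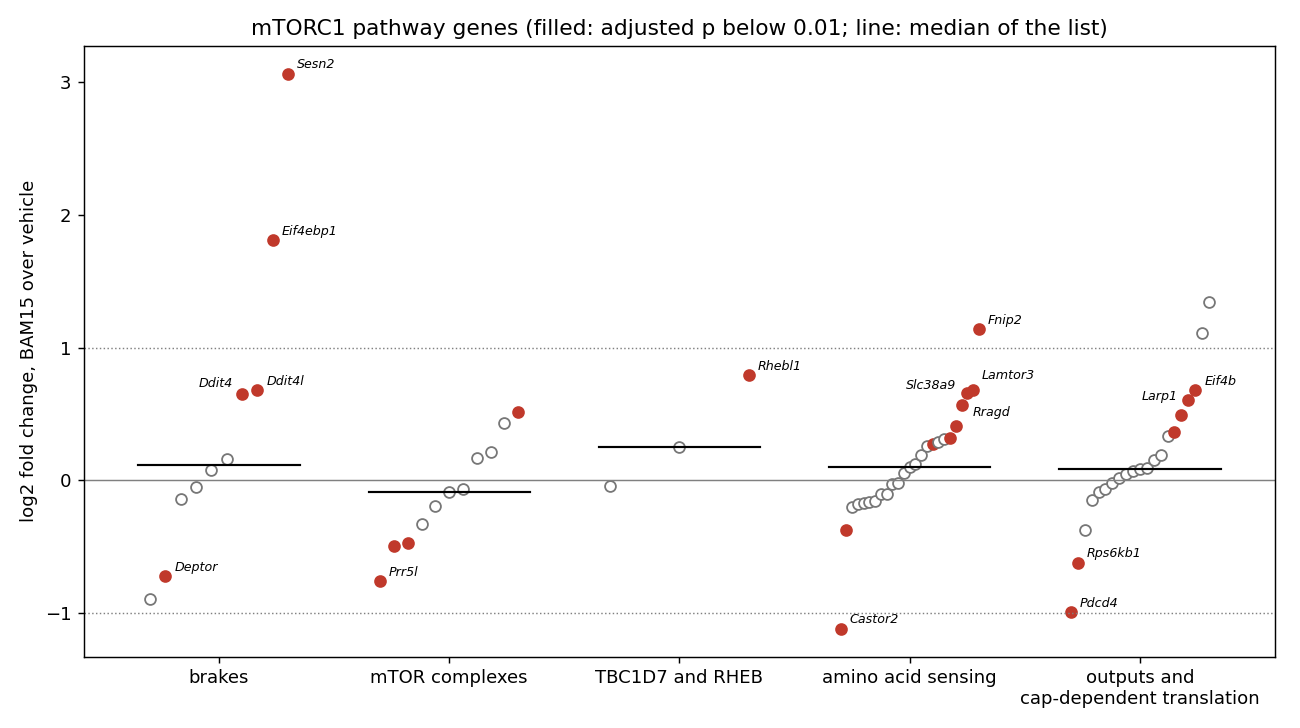
Log2 fold change of BAM15 over vehicle (vertical axis) for each tested gene of 5 lists of mTORC1 genes, sorted within a list, with filled points for an adjusted p below 0.01, open points for genes that did not pass, a line at the list's median and dotted lines at a 2-fold change. Sesn2 (3.06) and Eif4ebp1 (1.81) lie above all 60 other genes of the pathway, whose lists have medians between -0.08 and 0.25.

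The plot of the pathway places the members beside the other lists. Their medians were -0.08 for the mTOR complexes, 0.10 for amino acid sensing, 0.25 for TBC1D7 and the RHEB GTPases and 0.08 for the outputs, against 0.12 for the members. Sesn2 and Eif4ebp1 lay furthest from these medians, and the other 8 members lay between -0.89 and 0.68, within the range of the other pathway genes.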

How the data were processed

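RNA of C2C12 myotubes given 20 µM BAM15 or vehicle for 16 h (6 libraries each) was prepared with QuantSeq, and BlueBee software was used by the authors for alignment and counting. The deposited counts are reads per gene as whole numbers, not normalized. A deposited table of normalized signal, made by the authors with DESeq2 (version 1.22.2 in the submitters' processing notes, build GRCm38/mm10), holds these counts divided by 1 size factor per library (0.836 to 1.07) and was used for no test. The aligner and the counting strand are not given in the sources used here. A further 11 columns of other samples were not used.

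Counts were tested in R 4.3.3 with edgeR 4.0.16 (filterByExpr, which removed 2383 genes, TMM factors 0.932 to 1.04, robust quasi-likelihood test, condition as the only term), with Benjamini-Hochberg adjustment over 12730 genes and the study's thresholds. The SE is the log2 fold change divided by the square root of F. Shares were compared by exact permutation of the 12 libraries. Of 2293 missing symbols, 2260 were taken from GENCODE M21. Windows for shared sequence were 50 bases within the last 400 bases of annotated transcripts. Chi-square per gene between libraries of a condition was 4.72 to 78.4, so that no library was a copy of another. Alternatives were DESeq2 1.42.0, limma-voom (limma 3.58.1), other scalings and filters, blocks, number ranges, and each library left out. The scripts were tested on simulated data. Figures were drawn with matplotlib 3.10.9 in Python 3.11.15.

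The members, the gene lists and the number ranges were chosen with earlier results of these data known. All members are named. Other genes are named for the largest changes in each direction within a list, and for the 3 profiles nearest to a called member. Rptor, Mtor, Slc38a9, Rragd, Rps6kb1, Eif4e, Rps6, Trp53, Nr3c1, Hif1a and Foxo3 were named after their values were seen. So were Castor1, Pdk1, Myf5, Cdh15, Dcn and Pdgfra.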

Additional observations from a re-analysis of the deposited data

How the results depend on the processing

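Sesn2, Eif4ebp1, Ddit4 and Deptor kept their direction and their side of the adjusted p threshold under all 24 alternatives, with log2 fold changes of 2.86 to 3.21, 1.74 to 1.85, 0.59 to 0.69 and -0.85 to -0.62. Genes past the 3 thresholds numbered 189 in place of 927 at a log2 fold change above 2, where 1 in place of 2 members was higher. Members lower by adjusted p numbered 2 in place of 1 with a block for the number ranges, DESeq2's Wald test, limma-voom, no robust moderation and within numbers 1 to 3, and 1 to 2 with a library left out. The added member was Eif4ebp2 each time. It was also the 1 member lower at all 3 thresholds, in place of 0, within numbers 1 to 3 and without BAM15 replicate 4 (0 to 1 over the libraries left out). Fitted on those libraries alone, Ddit4l no longer passed within numbers 1 to 3 (log2 fold change 0.53, adjusted p = 0.0384) or 4 to 6 (0.82, 0.0177), where the smaller number of libraries lowers the power.

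Sesn1 turned to -0.21 within numbers 1 to 3 and to -0.10 without BAM15 replicate 5 (-0.10 to 0.17 with a library left out), and Tsc1 to 0.11 within numbers 1 to 3. The difference of the Ddit4 share turned to 0.330 points within numbers 1 to 3, to 0.322 without BAM15 replicate 5 and to 0.101 without vehicle replicate 5 (-0.438 to 0.322 with a library left out). Within numbers 1 to 3 and 4 to 6 the Sesn2 share differed by 48.4 and 36.9 points and the Eif4ebp1 share by 24.2 and 21.5, and 3 libraries against 3 cannot reach an exact permutation p below 0.1. Genes whose BAM15 effect differed between the number ranges numbered 763 with library size only, 594 with no robust moderation and 0 to 2532 with a library left out, against 339. The count was 0 in 10 of these 12 fits, with 2290 to 4356 genes at an unadjusted p below 0.05 (edgeR), and 2532 without BAM15 replicate 4. In that comparison the value of Ddit4 turned to 0.063 with library size only (-0.083 to 0.051 with a library left out) and Sesn3 ran from -0.021 to 0.24, while Eif4ebp2 passed with no robust moderation (adjusted p = 0.0472) and Sesn1 without BAM15 replicate 4 (0.0273). The cause of these changes was not tested.

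The library numbers were not treated as pairs. Same-numbered libraries deviated together with r of -0.0756 to 0.311, and 2 of 6 BAM15 libraries correlated best with their own number. Each of BAM15 libraries 1 to 3 correlated best with vehicle library 3, and each of 4 to 6 with vehicle library 6. The cause of this pattern was not tested. With a replicate block, 5292 genes passed an adjusted p of 0.01 in place of 5379 and 933 the 3 thresholds in place of 927, and the block left every member on its side of the threshold. Depth limits Ddit4l most, at 28.9 to 81.7 normalized counts per library.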

Other observations

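Lists of textbook targets of factors known to act on these genes were counted against a background of 22% of all tested genes higher and 20.3% lower at an adjusted p below 0.01. All the lists are small and were chosen with earlier results of these data known, and their counts are given as a description. The 8 listed targets of ATF4, the transcription factor of the integrated stress response, were all higher at this threshold (edgeR, Benjamini-Hochberg). Of these, 7 were called at all 3 thresholds, and the median log2 fold change of the 8 was 3.35. Trib3, a pseudokinase gene, showed the largest change, from 126 ± 19.1 to 6298 ± 617 normalized counts (SD, n = 6 each; log2 fold change 5.65). Atf4 itself rose from 9573 ± 706 to 41062 ± 6960 (log2 fold change 2.10). Of 6 p53 targets, 3 were higher and 3 did not pass, with a median of 0.31 and the largest change in Zmat3 (0.97). The only decrease among them, that of Cdkn1a (-0.28, edgeR adjusted p = 0.0135), did not pass. Of 5 FoxO targets, 3 were higher, led by the insulin receptor substrate gene Irs2 (1.19), and 1 was lower, Bnip3 (-0.68), with a median of 0.50. Of 6 targets of hypoxia-inducible factors, 1 was higher, the growth factor gene Vegfa (1.69), and 4 were lower, with a median of -0.65. The largest decrease was that of Ankrd37 (-2.11), whose base mean of 34.4 was below the minimum of 50. Of the lower genes only Pdk1 (-1.08) was called at all 3 thresholds. Of 4 glucocorticoid receptor targets, 2 were higher: Per1, a clock gene (2.46), and Klf15, at 48.7 ± 17.3 normalized counts with BAM15 and 0.789 ± 1.04 with vehicle, for which no fold is given. For the genes of the other factors, the log2 fold changes were 0.65 (Trp53), 0.60 (Nr3c1), 0.51 (Hif1a), 0.47 (Foxo3) and -0.37 (Foxo1). All of these passed the adjusted p threshold. Several lists share libraries and factors, and whether any factor acts on the members was not tested.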
